A study of Homo sapiens with 6 samples.

Results

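The 55 histone genes analysed here are the protein-coding genes of chromosome 6 whose GENCODE names begin with H1-, H2AC, H2BC, H3C or H4C followed by a number, out of 20033 protein-coding genes in the same annotation (release 44, hg38). They comprise 6 H1, 12 H2A, 15 H2B, 10 H3 and 12 H4 genes, and were selected by name and chromosome. The binding data came from CIDOP-seq in HepG2, a human liver cancer cell line grown without further treatment. In this assay a GST-tagged reading domain replaces the antibody of a ChIP experiment, and here it was the Tandem-Tudor domain (TTD, residues 126 to 280) of human UHRF1. The study comprised 2 TTD CIDOP, 2 H3K9me2 ChIP and 2 input libraries. Only the TTD peak list is used here, which the authors called on the mean of both TTD replicates, so no replicate error and no read depth stand behind the values and no test between samples was possible. The list holds positions and widths of 31569 peaks without any score, and the identity of the cells could not be checked from it. All values below therefore describe 1 pooled list, and the intervals given with shares cover counting error only.

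UHRF1 is a multi-domain protein that links histone marks to the maintenance of DNA methylation, and its TTD binds histone H3 tails methylated at lysine 9. The clustered histone genes supply the bulk histones that package newly made DNA. They are short and lack introns, they are expressed in S phase from nuclear histone locus bodies organised by NPAT, and their mRNAs end in a stem loop bound by SLBP in place of a poly(A) tail. H2A, H2B, H3 and H4 form the core of the nucleosome, whereas H1 binds the linker DNA.

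The members fell into 4 stretches, in which neighbouring genes lay no more than 100 kb apart. A pair of testis-type genes, H2AC1 and H2BC1, lay apart at chr6:25723397-25727345. The first and largest of the other stretches held 32 genes from H1-1 to H4C8 (chr6:26017032-26285638, 269 kb). The second held 5 genes from H2BC11 to H2AC12 (chr6:27125897-27147562, 21.7 kb), and the third held 16 genes from H2BC13 to H2BC17 (chr6:27807479-27893891, 86.4 kb). Throughout, cover means the percentage of bases of a gene or window that lie in TTD peaks.

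Many genes of the cluster are arranged as divergent pairs that share the DNA between their transcription start sites (TSSs). There were 11 such pairs, 10 of an H2A with an H2B gene and 1 of H3C7 with H2BC9, and they took in 22 of the 55 genes. A TTD peak covered the whole stretch between the TSSs in 3 pairs (H3C7/H2BC9, H2BC11/H2AC11 and H2BC12/H2AC12) and 25% of it in the pair H2AC14/H2BC14. The other 7 pairs had no peak there. The stretches of 5 pairs are shown as examples wholly in a peak, outside peaks and at a peak edge. They are the hg38 plus strand, 5′ to 3′. In the first 4, capitals mark the TATA motif (TATAAA), the CCAAT motif (CCAAT) and the octamer (ATTTGCAT) on either strand, and adjacent or overlapping matches run together.
H2BC11/H2AC11 between the TSSs, chr6:27132796-27133042, wholly in a peak: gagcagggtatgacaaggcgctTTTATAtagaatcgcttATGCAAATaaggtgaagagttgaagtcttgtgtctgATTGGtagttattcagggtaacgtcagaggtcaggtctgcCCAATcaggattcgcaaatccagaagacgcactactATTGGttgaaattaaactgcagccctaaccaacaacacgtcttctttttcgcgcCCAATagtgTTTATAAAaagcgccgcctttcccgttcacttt
H2BC12/H2AC12 between the TSSs, chr6:27146856-27147105, wholly in a peak: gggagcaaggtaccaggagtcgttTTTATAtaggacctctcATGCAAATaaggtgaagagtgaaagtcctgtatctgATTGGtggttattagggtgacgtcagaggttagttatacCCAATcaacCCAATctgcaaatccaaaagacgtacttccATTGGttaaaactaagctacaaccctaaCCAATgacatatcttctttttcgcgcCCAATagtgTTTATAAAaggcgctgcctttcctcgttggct
H2BC13/H2AC13 between the TSSs, chr6:27807930-27808172, outside peaks: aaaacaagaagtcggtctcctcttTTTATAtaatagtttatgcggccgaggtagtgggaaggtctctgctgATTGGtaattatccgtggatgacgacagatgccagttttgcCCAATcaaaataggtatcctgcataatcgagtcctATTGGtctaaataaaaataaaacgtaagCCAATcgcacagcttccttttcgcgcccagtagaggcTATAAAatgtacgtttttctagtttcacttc
H2BC8/H2AC8 between the TSSs, chr6:26216689-26216920, outside peaks: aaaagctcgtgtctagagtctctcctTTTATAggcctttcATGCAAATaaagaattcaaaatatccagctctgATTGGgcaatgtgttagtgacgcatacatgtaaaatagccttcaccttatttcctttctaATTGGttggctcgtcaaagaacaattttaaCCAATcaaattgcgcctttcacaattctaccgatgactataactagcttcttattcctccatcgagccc
In the fifth, capitals mark the 61 bases inside a peak.
H2AC14/H2BC14 between the TSSs, chr6:27814778-27815021, at a peak edge: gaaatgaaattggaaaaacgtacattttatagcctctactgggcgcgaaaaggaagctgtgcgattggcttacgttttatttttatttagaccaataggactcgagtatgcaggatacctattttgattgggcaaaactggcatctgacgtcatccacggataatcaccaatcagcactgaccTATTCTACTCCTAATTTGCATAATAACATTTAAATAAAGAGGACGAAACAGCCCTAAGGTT

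Over the 45 comparisons among the 10 H2A/H2B pairs, the stretches between the TSSs were between 46.8% and 86.2% identical, with a median of 55.2%. The closest, H2BC13/H2AC13 and H2AC14/H2BC14, were 86.2% identical and lay 0% and 25% in peaks, each read with the H2B gene on the left. The stretches of H2BC11/H2AC11 and H2BC12/H2AC12 were 80.2% identical and both lay wholly in peaks. The octamer, the binding motif of OCT1 known from H2B promoters, stood between the TSSs of H2BC8/H2AC8, which held no peak, and of H2BC11/H2AC11, which lay in a peak. It was absent only from H2BC13/H2AC13 and H2AC15/H2BC15, which held no peak between the TSSs. All other pairs, with and without such a peak, had it. H2BC11/H2AC11 was at most 65.0% identical to a pair without a peak between its TSSs, namely H2BC13/H2AC13, and H2BC12/H2AC12 at most 64.3%, to H2AC17/H2BC17.

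At the level of single genes, cover was all or none over the coding sequence. The coding sequences of 12 members lay wholly inside TTD peaks, those of 43 lay wholly outside, and none was cut by a peak edge. Among all protein-coding genes, 77 coding sequences lay wholly in peaks (0.384%) and 2175 lay partly in them, so that the 55 genes, 0.275% of the annotation, held 15.6% of the wholly covered coding sequences. By bases, however, the coding sequences of the members were covered to 20.6%, no more than the other bases of the same 4 stretches (21.1%), and the 250 bp on either side of their TSSs to 18.7%. The coding sequences of the cluster are short (294 to 678 bp in 1 piece, median 384 bp), and the part of length in this count was not tested. Among the 2172 other genes with a coding sequence in 1 piece, whose median length was 942 bp, 34 (1.57%) lay wholly in peaks.

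The 12 covered coding sequences shared 8 peaks. H3C1 and H4C1, which encode core histones H3 and H4, lay side by side in a peak of 6160 bp (chr6:26020141-26026300). H4C4 lay inside a peak of 5480 bp (chr6:26186331-26191810) that reached past its TSS on both sides and filled all of the 5 kb around it, as for no other member. H3C7 and H2BC9 shared a peak of 3020 bp (chr6:26249381-26252400). In the second stretch, H2BC11 and H2AC11 lay in the widest peak of the span, 7610 bp (chr6:27131411-27139020), and H2BC12 and H2AC12 in one of 4150 bp (chr6:27145081-27149230).

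The remaining 3 of these peaks each covered 1 gene. H3C6 had its coding sequence in a peak of 1980 bp (chr6:26224341-26226320), and the 5′ end of its annotated gene lay 142 bp outside, with a cover of 39.6% in the 5 kb around it. H3C12 lay in a peak of 3120 bp (chr6:27887811-27890930) over its coding sequence, although the 5′ end of its annotated gene lay 2176 bp away. The TSSs of the canonical transcripts of H3C6 and H3C12 lay inside these peaks. H2BC14 was covered by the narrowest, 580 bp (chr6:27814961-27815540), which began between H2BC14 and its partner H2AC14 and ended past the 3′ end of H2BC14. H2AC14 lay 183 bp from the edge of this peak and was not covered.

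**Figure D1:**
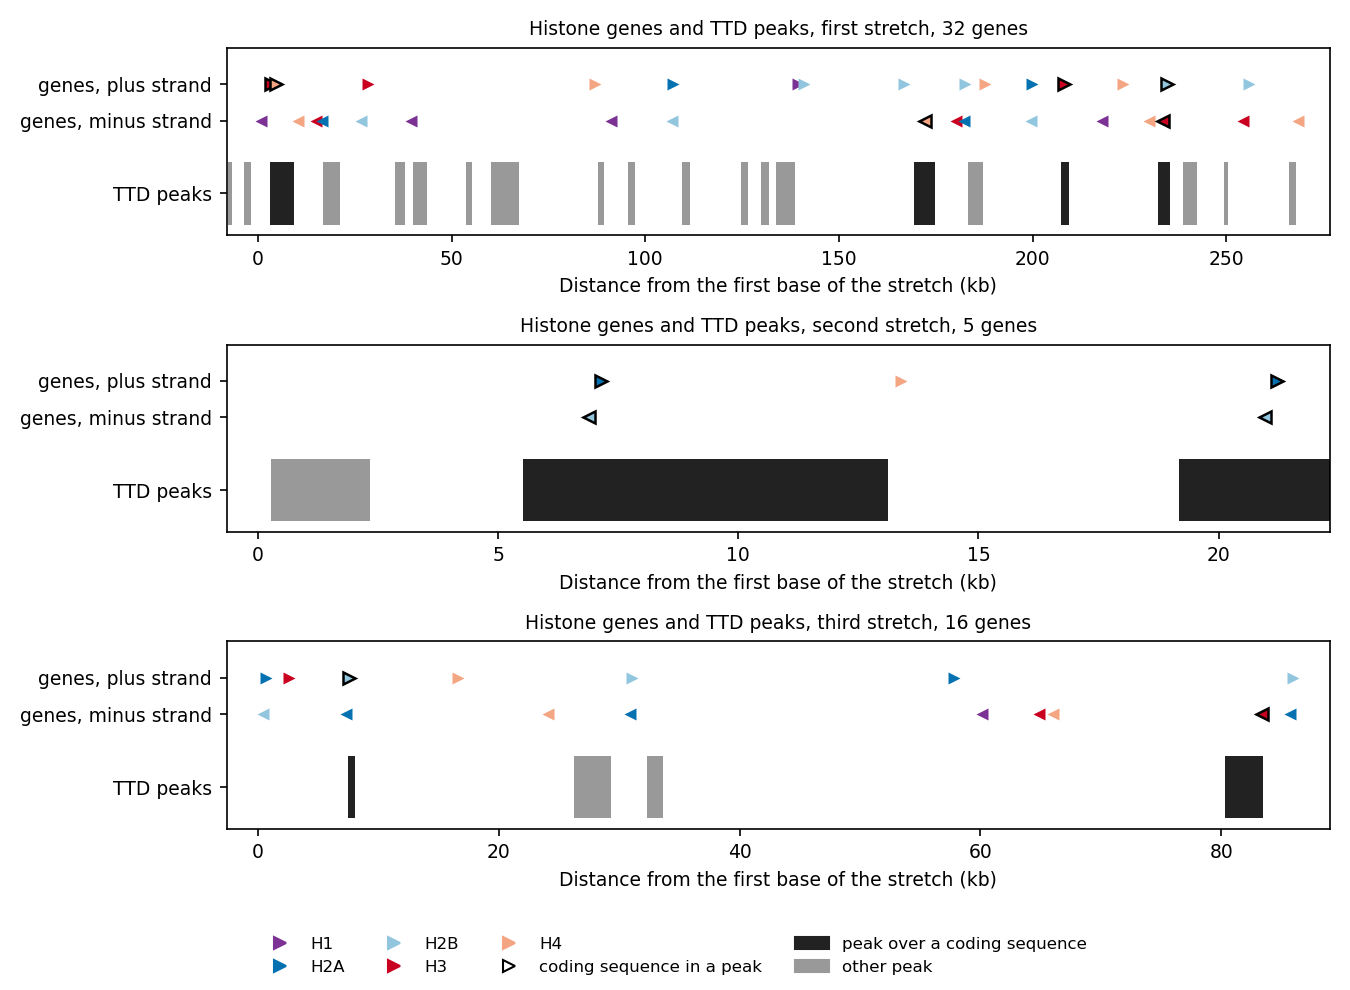
Position of the histone genes (triangles at the TSS of the canonical transcript, pointing in the direction of transcription, coloured by family, outlined where the coding sequence lies in a peak) and of the TTD peaks (bars, dark where a histone coding sequence lies inside) along the first, the second and the third stretch. The x axis is the distance in kb from the first base of the stretch. Of the 26 peaks that touch these stretches, 8 are dark, and the second stretch of 5 genes has 4 outlined genes.

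By family, covered coding sequences comprised 4 of 10 H3 genes, 4 of 15 H2B genes, 2 of 12 H2A genes, 2 of 12 H4 genes and none of the 6 H1 genes. The share was 21.8% in all members, whose 12 covered genes shared 8 peaks, and 0.384% in all protein-coding genes. No difference between families was tested. The uncovered H1 genes encode the linker histones. They were not far from peaks, however, since 4 of the 6 had a peak in the 5 kb around the TSS. For H1-2 the cover of this window was 59.0%, with 1 peak starting 560 bp upstream and another 759 bp downstream of the gene, and both the TSS and the gene between them lay free. H1-4 had a cover of 35.6%, from a peak of 4760 bp that ended 718 bp upstream of it. The testis-specific H1-6 had 13.1%, H1-1 had 2.94%, and H1-3 and H1-5 had none. The central 500 bp at the TSS held no peak in any of the 6 H1 genes, compared with a peak in 23.6% of all members and 5.39% of all protein-coding genes. The flanks of the H1 genes from 1 to 2.5 kb had a mean cover of 26.7%, compared with 24.8% in all members.

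Counting peaks over the whole annotated gene gave 16 of 55 members (29.1%), which was near the background of 34.2% of all protein-coding genes. Gene length differs between these counts, since the median annotated length was 495 bp for the members and 27471 bp for all genes. For 9 members the whole annotated gene was covered, among 34 such genes in the genome. The 16 included 4 genes, H2BC4, H2AC6, H4C8 and H2BC15, whose annotation runs on for 8030 to 37610 bp and whose peaks lay in that extension and not over the coding sequence. H2BC4, with 8.16% of 37610 bp in peaks, had no peak in the 5 kb around its TSS.

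The fixed window of 5 kb around the TSS takes gene length out of the comparison. A peak lay in this window in 33 of 55 members (60%, Wilson 95% interval 46.8 to 71.9), compared with 16.9% of all protein-coding genes and 27.5% of the other 996 protein-coding genes of chromosome 6. Of the 17 other protein-coding genes in the span from 26 to 28 Mb, 8 (47.1%, 26.2 to 69.0) had such a peak. The 8 include a gene without a symbol whose TSS is the same base as that of H2AC7, with the same window (cover 30.5%). The intervals of the members and of these neighbours overlap, but they treat genes as independent, and the difference was not tested. Many windows of the members overlap, and after joining them into 28 loci, 19 loci (67.9%) held a peak. The mean cover of the window was 23.1% (median 6.48%) in the members and 5.30% (median 0%) in all genes. A TSS base inside a peak was found in 10 members (18.2%) compared with 2.94% of all genes, or in 12 (21.8%) compared with 2.19% with the TSS of the canonical transcript. A peak lay within the central 500 bp in 13 members (23.6%) compared with 5.39%. The nearest peak was within 10 kb of the TSS in 48 members (87.3%) compared with 29.9%, and the median distance was 2176 bp compared with 30355 bp.

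The window cover differed among families less than within them. The mean was 30.7% for H4 (peak in 9 of 12 windows), 25.2% for H2A (8 of 12), 20.5% for H2B (7 of 15), 18.4% for H1 (4 of 6) and 18.0% for H3 (5 of 10), and every family ranged from 0% to at least 59.0%. The highest values were those of H4C4 (100%), H2AC12 and H2BC12 (83.0% each), H2AC11 (82.6%), H4C1 (80.2%) and H2BC11 (77.7%). H3C7 and H2BC9 followed with 60.4% each, then H1-2 with 59.0% and H3C1 with 56.2%. At the lower end of the window, H2BC17 counted as having a peak with 0.12% of its window, 2495 bp from the nearest peak, while H2BC5 at 2512 bp did not.

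**Figure D2:**
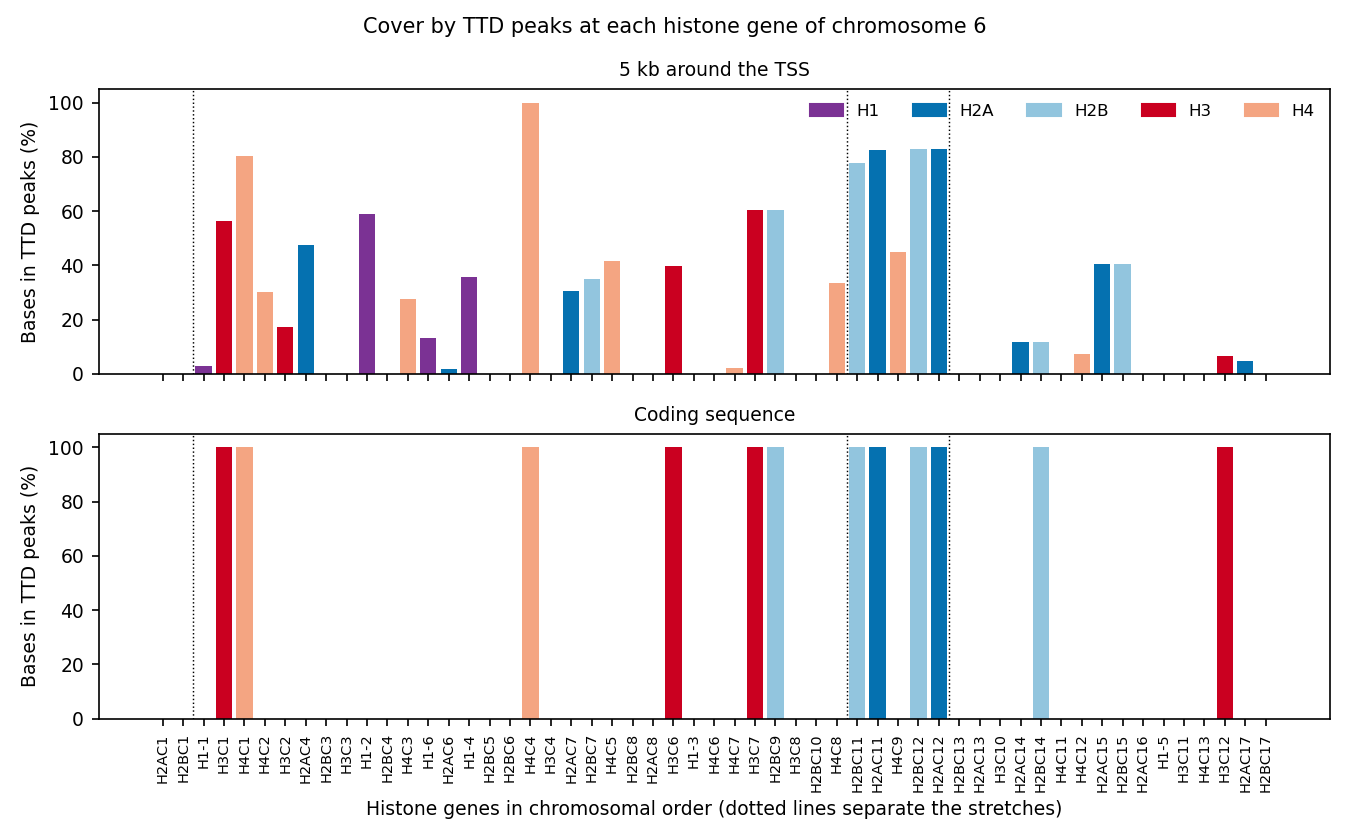
Percentage of bases in TTD peaks for each of the 55 histone genes in chromosomal order, in the 5 kb around the TSS (upper bars) and over the coding sequence (lower bars), coloured by family. The upper bars take values from 0% to 100%, with H4C4 alone at 100%, whereas the lower bars are either 0% (43 genes) or 100% (12 genes).

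The stretches differed in how many of their genes had peaks nearby. In the second stretch all 5 genes had a peak in the window, with a mean cover of 74.2%, and 4 of the 5 coding sequences were covered. The exception was H4C9, which lay 261 bp beyond the end of the 7610 bp peak and had a window cover of 44.8%. In the first stretch 20 of 32 windows held a peak (mean cover 24.2%), and in the third 8 of 16 (7.68%). Neither H2AC1 nor H2BC1 had a peak in its window, and the nearest was 18614 bp from the TSS of H2BC1.

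Of the 26 peaks that touched the 3 larger stretches, 18 held no histone coding sequence. In the first stretch, a peak of 4510 bp (chr6:26033741-26038250) began 122 bp upstream of H2AC4. H1-2 stood between peaks of 2530 bp (chr6:26052451-26054980) and 3670 bp (chr6:26057031-26060700). A peak of 3920 bp (chr6:26200271-26204190) took up most of the space between H2BC7, 282 bp away, and H4C5, 419 bp away. H2AC7, the partner of H2BC7, lay 977 bp from the same peak, so the windows of H2AC7, H2BC7 and H4C5 had a cover of 30.5%, 34.9% and 41.6% with all 3 genes free.

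The other peaks of the first stretch lay between or within the long annotations of the genes. One of 1380 bp (chr6:26104911-26106290) lay 573 bp downstream of H4C3 and 1121 bp downstream of H1-6, and also inside the long annotation of H2BC4, as did one of 1690 bp (chr6:26112641-26114330). The peak before H1-4 (chr6:26150851-26155610) was the third in a row after ones of 1680 bp (chr6:26141761-26143440) and 2010 bp (chr6:26146911-26148920). A peak of 2010 bp (chr6:26126551-26128560) lay 1860 bp past the 3′ end of the canonical H2AC6 transcript, and one of 1680 bp (chr6:26283221-26284900) lay 225 bp downstream of the canonical transcript of H4C8, inside the extended annotation of that gene, whose window had a cover of 33.6%. Peaks of 3660 bp (chr6:26255891-26259550) and 920 bp (chr6:26266451-26267370) lay between H2BC9 and H3C8, at least 3547 bp from either. The widest without a coding sequence, 7170 bp (chr6:26077231-26084400), lay in the wide gap between H1-2 and H4C3, as did one of 1580 bp (chr6:26070691-26072270).

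In the second stretch a peak of 2080 bp (chr6:27126161-27128240) lay 4075 bp from H2BC11, within its extended annotation. In the third, peaks of 3130 bp (chr6:27833691-27836820) and 1320 bp (chr6:27839801-27841120) enclosed the pair H2AC15/H2BC15. This pair had a window cover of 40.4% for each gene, with peaks in both flanks and none in the central 500 bp. Beyond the ends of the first stretch, 3 more peaks lay within 10 kb of a member, at chr6:26009341-26010250 and chr6:26013441-26015250 on the side of H1-1, and at chr6:26294861-26298490 on the side of H4C8.

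Among the 43 uncovered members, the nearer peak lay at a median of 2494 bp from the gene. It was upstream in 22 and downstream in 21. For 12 of them the gap was under 1 kb, with the peak upstream in 7 and downstream in 5. By distance from the TSS, the nearest were H2AC4 (123 bp), H2AC14 (184 bp) and H4C9 (262 bp), and the farthest were H2AC16 (22494 bp), H1-5 (20223 bp) and H2AC1 (18829 bp). H2AC16 and H1-5 lay with H3C11 and H4C13 in a part of the third stretch that was free of peaks for 46690 bp, up to the peak of H3C12. H2AC17 and H2BC17, the last genes, lay near one end of 129390 bp without a peak.

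Within 1 kb of the TSS, the averaged profile of the members had a shallow minimum. Mean cover in 100 bp bins was 17.5% at 50 bp before the TSS (21.1% with canonical TSSs). It reached 30.4% at 2650 bp upstream and 25.5% at 1650 bp downstream, and fell to 14.5% at 4750 bp downstream. In all protein-coding genes the minimum was 2.62% at 350 bp downstream of the TSS, with 7.71% at 950 bp upstream. The central 500 bp had a mean cover of 18.6% in the members and the flanks 24.8%, a difference of -6.16 percentage points. In all genes the centre had 3.31% and the flanks 5.83%, a difference of -2.51 points. The average of the members mixed different patterns. H2B and H3 genes had differences of 4.60 and 6.08 points, whereas H1, H4 and H2A genes had -26.7, -18.8 and -6.86. With 1 value for each of the 28 loci the difference was -11.3 points, and with the TSS of the canonical transcript, which differed in 6 members, it was -3.54. Of the 33 members with a peak in the window, 22 (66.7%) had less cover at the centre than in the flanks, near the 75% of all genes with a peak in the window. Both flanks held a peak in 10 members (18.2%) compared with 2.74% of all genes.

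**Figure D3:**
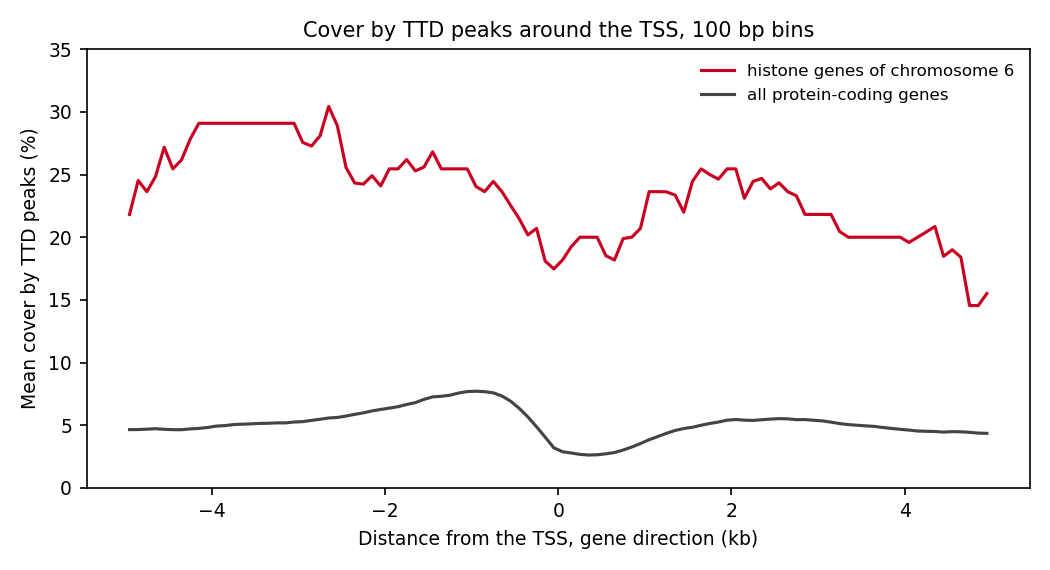
Mean cover by TTD peaks (%) in 100 bp bins against the distance from the TSS in kb, for the 55 histone genes (red) and for all 20033 protein-coding genes (grey). The red line stays between 14.5% and 30.4% with a dip to 17.5% at the TSS, above the grey line in every bin.

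The span from 26 to 28 Mb, which includes all members except H2AC1 and H2BC1, held 67 peaks, or 33.5 per Mb, with a cover of 10.2%. The corresponding values were 16.7 per Mb and 5.33% for chromosome 6, and 10.2 per Mb and 3.02% for hg38. Of 85 adjoining windows of 2 Mb on the chromosome (median cover 4.08%, maximum 20.9%), the span was 12th by cover and 5th by number of peaks. Inside it, the 3 gene stretches had a cover of 21.3% and the remainder 7.65%. This contrast was not uniform, because the first, the second and the third stretch had 22.3%, 56.2% and 9.43%, while the gap between the first and the second had 9.12% and that between the second and the third 6.78%. The gap between H2BC1 and the first stretch, most of which lies outside the span, had 21.0%. The cover also stayed between 16.5% and 19.3% in the 3 bins of 100 kb that follow the first stretch, which hold butyrophilin genes and no member. The number of copies of this region in HepG2 was not measured here, and its part in these levels was not tested.

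**Figure D4:**
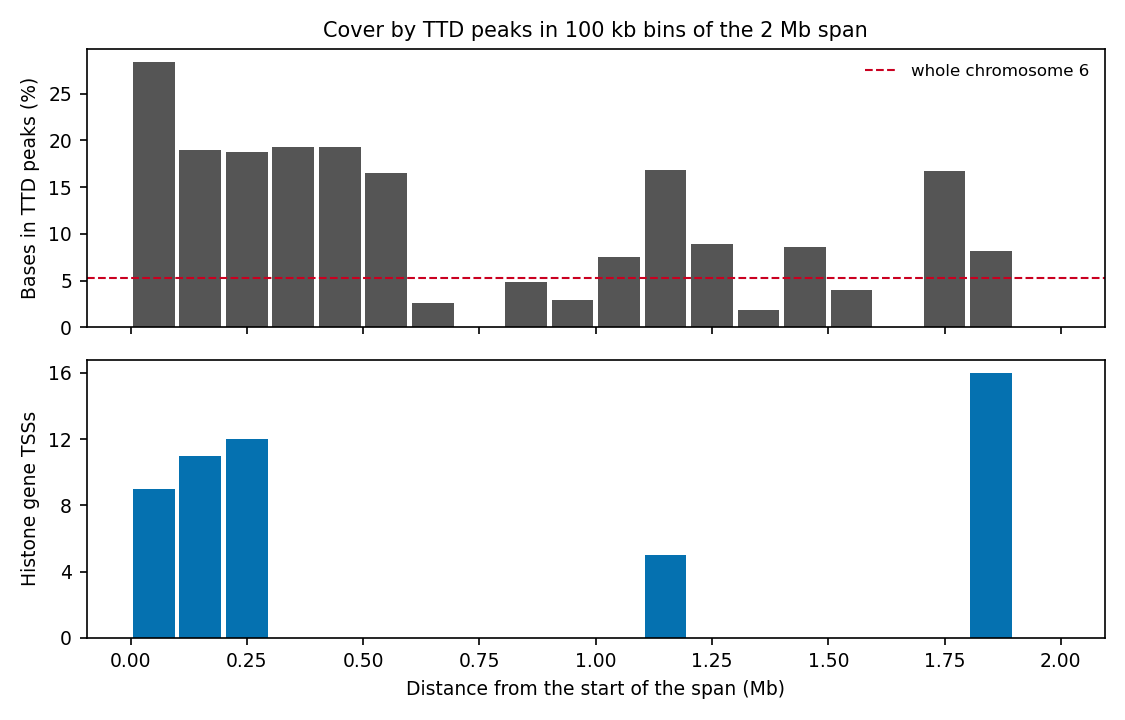
Cover by TTD peaks (%, upper bars, with the level of chromosome 6 as a dashed line at 5.33%) and number of histone gene TSSs (lower bars) in 100 kb bins along the 2 Mb span, against the distance from its start in Mb. Cover is highest in the first bin (28.3%), which has 9 TSSs, and is 8.15% in the bin with the most TSSs, 16.

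The 17 other protein-coding genes of the span had a mean window cover of 15.2%, with a peak in the 8 windows counted above. This mean includes the gene that shares its window with H2AC7. The coding sequence of none of the 17 was touched by a peak, compared with 11.2% of all protein-coding genes. The largest covers were those of BTN3A3 (72.0%) and BTN3A2 (36.2%), butyrophilins of the BTN3A family, known from the recognition of phosphoantigens by T cells, and of the zinc finger genes ZNF184 (40.6%) and ZNF322 (39.0%). The 5 widest peaks of the span were the 7610 bp peak of H2BC11 and H2AC11, the 7170 bp peak between H1-2 and H4C3, peaks of 7030 bp (chr6:27772731-27779760) and 6840 bp (chr6:26559911-26566750) that overlapped no protein-coding gene, and a peak of 6340 bp (chr6:26414191-26420530) at the end of BTN3A1. HFE, a regulator of iron uptake that lies inside the first stretch, had no peak in its window.

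The comparison lists are read against the same background of all protein-coding genes. Of these, 16.9% had a peak in the window, 2.94% a TSS base in a peak and 11.2% a peak over the coding sequence. Of 18 genes with the same name pattern on other chromosomes, 5 (27.8%) had a peak in the window, with the largest cover in H2BC21 (18.2%), H4C14 (14.3%), H4C15 (14.2%) and H2AC20 (13.5%) of chromosome 1, and no TSS and no coding sequence lay in a peak. Of 11 histone pseudogenes on chromosome 6, only H2AC3P had a peak in the window (70.4%). Among 22 genes of replication-independent histone variants, 4 of which are H1 genes also counted among the 18, H3-3B (56.1%), a gene for H3.3, and CENPA (15%), the centromeric H3, had one (2 of 22, 9.09%). Among 22 regulators of histone gene expression and histone mRNA processing, 4 (18.2%) had a peak in the window, close to the 16.9% of all protein-coding genes, with a cover of 16.2% for CSTF2, 14.6% for SRRT, 13.6% for NCBP1 and 7.30% for E2F1. NPAT and SLBP had none, and no TSS of the 22 regulators lay in a peak (all protein-coding genes, 2.94%).

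The TSSs of the covered members were rich in CpG. The CpG observed/expected ratio compares the number of CpG dinucleotides with that given by the C and G content, and is high in CpG islands. In the 1 kb around the TSS its median was 0.841 in the members (0.607 to 0.978), with a GC content of 50.2%, and 0.688 in all protein-coding genes, with a GC content of 59.2%. TSSs inside TTD peaks had a median ratio of 0.259 over all 589 genes and of 0.863 over the 10 members. Of the 12031 genes with a ratio of 0.6 or more, which include all 55 members, 136 (1.13%) had the TSS in a peak, and 10 of these 136 (7.35%) were members. Of the 8002 genes with a lower ratio, 453 (5.66%) had the TSS in a peak. Within the cluster the ratio did not order the genes by cover (Spearman's rho 0.11 and Pearson's r 0.08 with the window cover over the 55 genes, many of which share a locus).

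The peaks showed the same feature. The 8 peaks over histone coding sequences had a median CpG ratio of 0.603 (0.391 to 0.799), and 6 of them had 0.5 or more, compared with 1.63% of all 31569 peaks (median 0.193). The other 18 peaks in the stretches had a median of 0.293, with only that beside H4C8 at 0.5 or more (0.739), and the 41 peaks in the rest of the span had 0.236, with 6 at 0.5 or more. The histone genes make up part of these peaks. When the bases of the canonical histone transcripts were left out, the ratio of the remaining bases was lower in all 8 peaks. It went from 0.522 to 0.385 for the peak of H3C1 and H4C1, from 0.447 to 0.354 for that of H4C4 and from 0.391 to 0.201 for that of H3C12. The peak of H2BC11 and H2AC11 went from 0.558 to 0.444, and that of H2BC12 and H2AC12 from 0.647 to 0.492. That of H3C6 went from 0.792 to 0.658, that of H3C7 and H2BC9 from 0.727 to 0.589, and that of H2BC14 from 0.799 to 0.566, over the 112 bp left. When 300 bp on each side of the transcripts were left out as well, the ratio was 0.285 for H3C1 and H4C1, 0.311 for H4C4, 0.400 for H2BC11 and H2AC11, 0.434 for H2BC12 and H2AC12 and 0.170 for H3C12. It was then 0.686 for H3C6 and 0.602 for H3C7 and H2BC9, and no base of the H2BC14 peak remained.

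**Figure D5:**
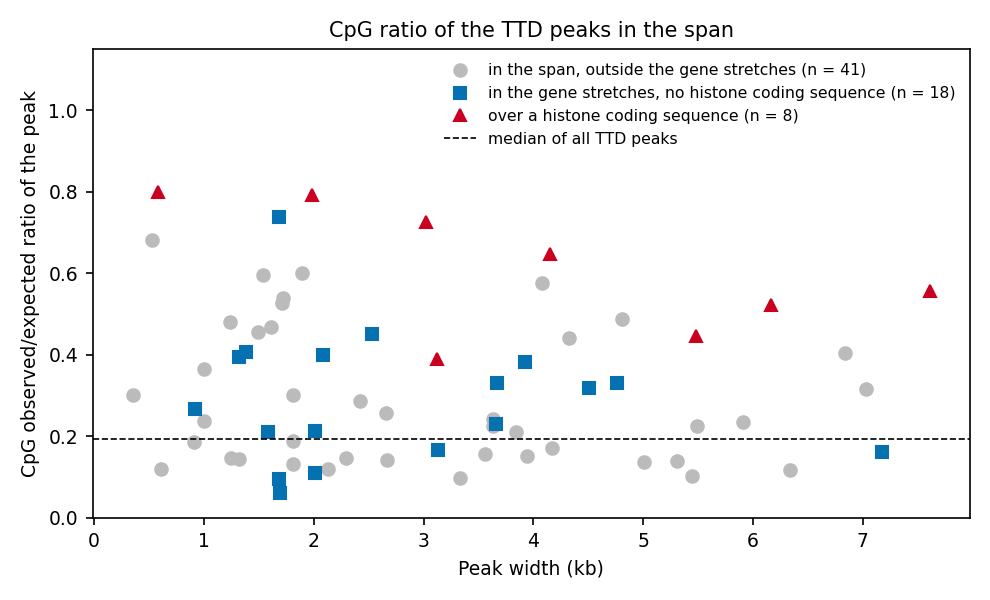
CpG observed/expected ratio of each of the 67 TTD peaks in the span against its width in kb, for the 8 peaks over a histone coding sequence (red triangles), the 18 other peaks that touch the gene stretches (blue squares) and the 41 peaks in the rest of the span (grey circles). The red triangles lie between 0.391 and 0.799, above the median of all TTD peaks (dashed line, 0.193).

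Histone genes are similar to each other, and a read from an exactly repeated sequence matches several places. Windows of 150 bases along each canonical transcript were therefore looked up on both strands of hg38. Exact repeats elsewhere were found in 4 members only, namely H4C12 (89.5% of its windows), H4C11 (88.8%), H2AC14 (56.0%) and H2AC13 (52.9%), and all 4 coding sequences lay outside peaks, as did those of 43 of the 55 members (78.2%). None of the 12 covered members had a repeated window of this length. With windows of 75 bases, 14 members had repeats, including H2BC12 (39.0%) and H2BC11 (2.96%) among the covered. How the authors treated reads that match several places is not given in the sources used here, and its part in the peak list at these 4 genes was not tested.

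RefSeq promoter sequences of 300 bases, most of them before the TSS (GRCh38.p14), were matched for 50 of the 55 members. TATAAA on either strand was found in 33 of 50 (all 27326 promoters, 11.9%), CCAAT in 43 (35.7%) and the octamer ATTTGCAT in 22 (1.81%). The octamer was present in 12 of 15 H2B and 9 of 11 H2A promoters, which in divergent pairs can be the same site. The H1 box core AAACACA was found in all 6 H1 promoters and in no other member (5.76% of all promoters). Among the 9 matched members with a covered coding sequence, 8 held TATAAA, 8 held CCAAT and 5 the octamer, compared with 25, 35 and 17 of the 41 uncovered members.

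The consensus stem loop that ends histone mRNAs (16 bases) was found within 100 bases after the coding sequence in all 55 members, in 14 of the 18 histone genes on other chromosomes and in 72 of 20033 protein-coding genes (0.359%). The 3 most frequent forms are shown as the strand of the gene in hg38, with the arms of the stem in capitals, because they end most members, covered and uncovered.
Stem loop of 31 members, as in H3C1, H2AC12 and H2BC17, 6 of the 31 covered: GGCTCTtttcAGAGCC
Stem loop of 9 H4 members, as in H4C1 and H4C4, 2 of the 9 covered: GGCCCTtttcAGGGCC
Stem loop of 8 members, as in H1-1, H2BC11 and H2BC12, 2 of the 8 covered: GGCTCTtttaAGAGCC
The second form occurred in H4 genes only. Each of the 3 forms ended both covered and uncovered genes.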

How the data were processed

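The authors trimmed the reads with Trimmomatic 0.38 and checked them with FastQC 0.72, mapped them to hg38 with HISAT2 2.2.1 and used deepTools 3.3.2 for RPKM coverage (bins of 10 bp, blacklisted regions left out). MACS2 2.1.1 was used to call broad peaks on the mean of the 2 TTD replicates at fixed cutoffs, and the peaks were then filtered for blacklisted regions and curated by hand. The deposited values are the positions and widths of 31569 peaks in bp; the curation by hand cannot be repeated from them, and no input track is named for the peak calling. The libraries of H3K9me2 and input were not used here, and the list gives no read depth.

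Cover was computed by interval arithmetic, with genes, canonical transcripts and coding sequences from GENCODE release 44. The TSS is the 5′ end of the annotated gene. Each gene list was described beside all 20033 protein-coding genes, without a test. The functions were checked on simulated intervals. The histone genes, the lists and the rule for named genes were chosen with earlier results of these data known. Full values are given for the 12 genes with a peak over the gene or TSS and the largest 5 kb cover, the 3 nearest to and 3 farthest from a peak, the ends of each stretch, the leading gene of each family and up to 4 genes of each comparison list, and all peaks within 10 kb of a member are named. The covered coding sequences were named after their values were seen. Alternatives were wider peaks, joined peaks, other TSSs, windows, thresholds and stretches, and, added after the data were seen, canonical transcripts and coding sequences. Python 3.11.15, numpy 2.4.6, pysam 0.24.0, biopython 1.88 and samtools 1.23.1 were used.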

Additional observations from a re-analysis of the deposited data

How the results depend on the processing

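Of 31 values recomputed under other settings, 25 stayed within the tolerance, 6 moved further and 0 changed sign. The tolerance was a ratio of 1.5 for counts, distances and differences, and the 95% Wilson interval for the cover of the windows (over the 55 genes) and of the span (over units of 150 bp). With only the 15790 peaks that were 2250 bp wide (the median) or wider, 10 members had a peak over the gene, the centre minus flank difference was -3.70 percentage points and the cover of the span 7.98%, and 10 of the 12 coding sequences were still covered, all but H3C6 and H2BC14. The centre minus flank difference was -3.54 points with canonical TSSs and -11.3 points with 1 value per locus. The cover of the span was 12.1% when it was taken from the first to the last base of the members. The number of members with a peak in the 5 kb window was 26 with the wider peaks, and 22 and 38 with 1 kb and 5 kb on each side of the TSS. The 22, beside 33 in the main setting, lay just at the limit of the tolerance. Canonical transcripts and coding sequences, settings chosen after seeing the data, each gave 12 members with a peak. No paired analysis was possible because both replicates had been merged ahead of peak calling, and no setting could leave out a replicate for the same reason. Without scores for the peaks, depth and signal strength set no threshold here, so an uncovered gene is one without a listed peak and not one without TTD binding.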
